A study of Mus musculus with 8 samples.

Results

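The genes described here are 10 regulators and markers of nephron progenitor cells (NPCs) other than *Six2*: *Cited1*, *Eya1*, *Osr1*, *Meox1*, *Meox2*, *Sall1*, *Pax2*, *Pax8*, *Crym* and *Lhx1*. They were taken by symbol from the 32285 genes counted in a pool of embryonic mouse kidney cells, and each symbol had 1 entry. NPCs are the mesenchymal cells that cap the tips of the ureteric bud. They renew themselves under transcription factors such as SIX2, EYA1, OSR1, SALL1 and PAX2, and on a WNT signal from the bud they leave the cap, switch on *Wnt4*, *Pax8* and *Lhx1*, and form the renal vesicle, from which the S-shaped body and the segments of the nephron arise. *Cited1*, which encodes a transcriptional co-activator, marks the uncommitted cells of the cap and is lost on induction.

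The pool held the kidneys of 2 male embryos homozygous for a *Trim28* allele deleted by Six2-cre (*Trim28*Δ/Δ, ko, mice 1 and 2) and of 2 male embryos with both floxed alleles intact (*Trim28*f/f, wt, mice 3 and 4), at E17.5 by the labels and a day older by the study's methods. Six2-cre is a transgene that expresses Cre under *Six2* control in the cap, so that NPCs and all their descendants carry the deletion while stroma, vessels and collecting system do not. Cells of each mouse bore their own membrane-anchored oligonucleotide tag, and a cell was assigned to a mouse by that tag. TRIM28 is a co-repressor that zinc finger proteins recruit to chromatin.

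After filtering, 7452 cells were assigned to a mouse (1472 and 1652 ko, 2568 and 1760 wt), with a median of 16465 to 17131 unique molecular identifiers (UMIs, counted molecules) per cell. A further 5130 cells carried more than 1 tag and were dropped as doublets, 2326 carried none, and 4365 cells with a tag that the deposited list does not name were not used. The members took no part in the clustering or in the naming of the 24 clusters. NPC-like cells were cluster 8 (340 cells, 14 and 34 from ko mice and 80 and 212 from wt mice) and cluster 6 (375 cells, 33 and 43 ko, 126 and 173 wt). Cluster 8 was led by *Cited1*, *Cped1*, *Eya1*, *Spock2* and *Six2*, and cluster 6 by *Tmem100*, *Six2*, *Pcp4*, *Wt1* and *Wnt4*, so that cluster 6 also held renal vesicle genes. Of the 7 NPC markers used for the name, *Six2*, *Spock2*, *Uncx* and *Phf19* were highest in NPC-like cells, whereas *Itga8* and *Gdnf* were highest in cluster 16, an unnamed group led by *Pdgfrb*, and *Dpf3* in podocyte-like cells. In mouse 3 only 2 cells were collecting duct-like, so this class was not tested. *Trim28* itself was at 37.2 and 25.4 CPM (UMIs scaled to the same total in each mouse and class) in ko NPC-like cells and at 140.0 and 160.1 CPM in wt NPC-like cells (log2 change -2.44 ± 0.22 SE, adjusted p = 0.00311), and it was not separated between genotypes in stroma-like cells (-0.06 ± 0.23). The kit counts the 3′ ends of transcripts, outside the floxed segment, so these values do not show the deletion itself.

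The members lie on 8 chromosomes. In the GRCm38 annotation (GENCODE M21) *Cited1* is at chromosome X, positions 102247381 to 102252181, minus strand, and *Meox2* at chromosome 12, positions 37108540 to 37179534, plus strand. *Eya1* is at chromosome 1, 14168954 to 14310235, minus strand, *Osr1* at chromosome 12, 9570116 to 9581500, plus strand, and *Meox1* at chromosome 11, 101877510 to 101894374, minus strand. *Sall1* is at chromosome 8, 89027235 to 89044162, minus strand, *Pax2* at chromosome 19, 44756045 to 44837871, plus strand, and *Pax8* at chromosome 2, 24420560 to 24475599, minus strand. *Crym* is at chromosome 7, 120186380 to 120202111, minus strand, and *Lhx1* at chromosome 11, 84518284 to 84525535, minus strand. An annotated gene overlaps *Eya1*, *Osr1*, *Meox1*, *Pax2* and *Pax8* on the opposite strand, and *Eya1*, *Meox2* and *Pax2* on the same strand. Reads of such partners could be counted with the member, since the counting settings are not known.

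*Cited1* and *Meox2* are the members that passed an adjusted p of 0.05 in both NPC-like clusters, where they were lower in the ko cells (values further on), and their promoters are therefore shown. In both clusters *Meox2* passed the filter on low counts through the wt cells alone, so its calls there rest on its wt level. The sequences are the 250 bases before a RefSeq start on GRCm38.p6, read 5′ to 3′ on the strand of the gene. Capitals mark the letters TATAAA or their reverse complement, the core of a TATA box, a motif added after the letters had been seen. In the *Cited1* window they lie close to its end, and in the *Meox2* window they are in the reverse orientation. Whether either stretch acts as a TATA box was not tested. *Cited1* has 3 windows in RefSeq, and the one that ends at the annotated gene start is chrX:102252182-102252431 (minus strand). Another of the 3 also holds these letters.
Cited1: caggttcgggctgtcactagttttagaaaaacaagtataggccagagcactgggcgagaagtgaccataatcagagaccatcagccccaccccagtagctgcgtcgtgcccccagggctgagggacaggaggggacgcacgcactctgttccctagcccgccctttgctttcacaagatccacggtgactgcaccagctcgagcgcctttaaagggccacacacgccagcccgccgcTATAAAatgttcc
The *Meox2* window is chr12:37108290-37108539 (plus strand).
Meox2: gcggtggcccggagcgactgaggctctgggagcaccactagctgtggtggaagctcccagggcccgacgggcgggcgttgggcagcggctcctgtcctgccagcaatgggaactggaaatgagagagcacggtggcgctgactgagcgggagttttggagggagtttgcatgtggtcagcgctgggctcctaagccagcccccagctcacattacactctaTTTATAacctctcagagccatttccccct
The TATAAA letters, on either strand, were in 12.4% of the 32851 windows of this length. RefSeq windows were found for 6 of the 10 members (12 windows), and none of the 12 held a SIX-type motif (TCANGTTTC, in 0.989% of all windows), a TCF/LEF motif (CTTTGAT, 3.21%), a PAX-type motif (GTCACGC, 1.78%) or a HOX-type motif (TTTATGG, 2.43%) on either strand.

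In wt kidneys, 7 of the 10 members were highest in NPC-like cells among the 21 groups of cells, and they divided into genes of the uncommitted cap and genes that stayed high after it. These levels are a description without a test. *Cited1* stood at 266 and 314 CPM in wt NPC-like cells and next at 32.0 and 37.9 CPM in cluster 13, an unnamed group led by *Cryab*. *Eya1*, a phosphatase and co-activator that partners SIX2, was at 118 and 141 CPM in NPC-like cells and below 27 CPM in every other class of the wt mice. *Crym*, which encodes a thyroid hormone-binding protein, was at 79.7 and 91.4 CPM, and the following class, ErPT-like (early proximal tubule), at 12.9 and 14.6 CPM. *Osr1*, a zinc finger factor of the early nephrogenic mesenchyme, was at 59.3 and 46.0 CPM, a range that overlapped cluster 21, a *Foxd1*-positive group, at 54.8 and 38.6 CPM. *Meox2*, a mesodermal homeobox gene, was at 27.8 and 26.4 CPM and below 9 CPM elsewhere. Its relative *Meox1* was higher in endothelial-like cells (30.6 and 44.4 CPM) than in NPC-like cells (20.9 and 31.2 CPM), with overlapping ranges.

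The members with a wider range were *Sall1*, *Pax2*, *Pax8* and *Lhx1*. *Sall1*, a zinc finger factor needed for the outgrowth of the ureteric bud into the mesenchyme, was at 111 and 117 CPM in wt NPC-like cells and not separated from cluster 2 (113 and 108 CPM), a group of cycling cells led by *Ube2c* and *Cenpf*. *Pax2*, a paired box factor of cap and collecting system alike, was at 268 and 327 CPM in wt NPC-like cells and at 207 and 210.2 CPM in ureteric bud-like cells. *Pax8*, its relative in induced cells, was highest in renal vesicle-like cells (251 and 221 CPM). *Lhx1*, a LIM homeobox gene of the renal vesicle and S-shaped body, was highest in cluster 2 (436 and 597 CPM), a range that overlapped the 489 and 483 CPM of renal vesicle-like cells, and was at 447 and 427 CPM in cluster 5 and at 226 and 192 CPM in NPC-like cells. Within the latter it was at 13.4 and 27.4 CPM in cluster 8 and at 320 and 330 CPM in cluster 6. Cluster 5 was unnamed: its markers came closest to the S-shaped body, and it was led by *Spon1*, *Fgf8*, *Epha4* and *Sim2*.

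**Figure D1:**
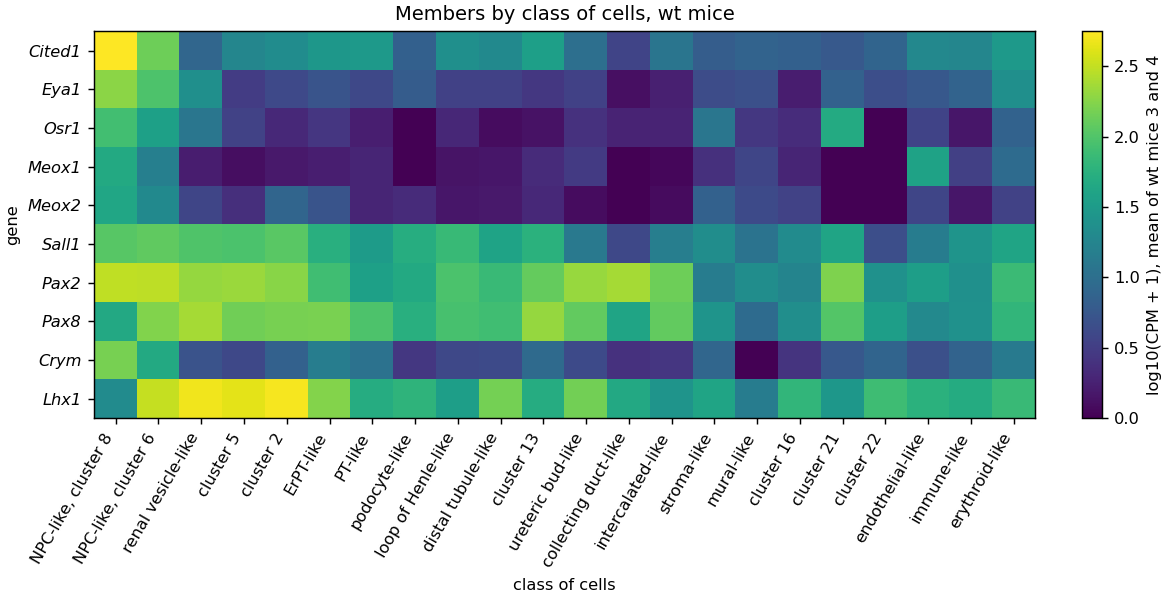
Mean level of each member in the wt mice (rows: genes; columns: classes of cells, the NPC-like class shown as its 2 clusters), as log10(CPM + 1); the collecting duct-like column rests on 2 cells of mouse 3. *Cited1* and *Crym* are brightest in cluster 8, *Lhx1* is dark there and bright from cluster 6 to cluster 5 and cluster 2, and *Pax2* is bright in cap and collecting system.

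The genotypes were then compared within NPC-like cells, a class that joined cap cells with cells that also held renal vesicle genes. The ko embryos carried Six2-cre together with the deletion, so effects of the transgene and of the deletion cannot be told apart. Of the 10 members, all of which passed the filter on low counts, 6 were lower in ko NPC-like cells and none was higher at an adjusted p below 0.05. *Meox2*, which is among the 6, passed that filter through the wt cells alone. Over all 11288 genes tested there, 1.32% were called and 0.824% were called lower. DESeq2 likewise called 6 members lower and none higher, with 110 genes called in all. The share of tested genes that DESeq2 called was not counted. At an unadjusted p below 0.05, 7 members were lower and 2 higher by edgeR. The share of all genes at that threshold was not counted, here or in the comparisons below. Such counts are therefore no result about the members. The median log2 change of the members was -1.02, and that of all genes tested -0.01. *Cited1* was at 22.5 and 24.02 CPM in the ko mice and at 266 and 314 CPM in the wt mice (log2 change -3.78 ± 0.20 SE, adjusted p = 6.82e-05). The ko level lay within the range of ko PT-like (proximal tubule) and ErPT-like cells (19.1 to 27.7 CPM) and below the 50.1 CPM of free RNA, measured in barcodes with 10 to 100 UMIs.

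*Meox2* had 4 UMIs in ko NPC-like cells and 311 in wt NPC-like cells, which gave 1.96 and 1.34 CPM against 27.8 and 26.4 CPM (adjusted p = 0.0039). The ratio of wt to ko was 16.9, with an exact 95% interval of 6.55 to 62.5 that covers counting error only. *Meox1* was at 4.89 and 5.34 CPM against 20.9 and 31.2 CPM (log2 change -2.49 ± 0.39, adjusted p = 0.0245). In endothelial-like cells, which Six2-cre does not reach, *Meox1* was at 36.9 and 36.3 CPM against 30.6 and 44.4 CPM, and the genotypes overlapped.

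*Osr1* was at 23.5 and 18.0 CPM in ko NPC-like cells and at 59.3 and 46.0 CPM in wt NPC-like cells (log2 change -1.50 ± 0.26, adjusted p = 0.0297). *Eya1* was at 56.7 and 75.4 CPM against 118 and 141 CPM (-1.11 ± 0.20, adjusted p = 0.0376). *Pax2* was at 168 and 178 CPM against 268 and 327 CPM (-0.93 ± 0.16, adjusted p = 0.0297). For each of these genes both ko mice lay below both wt mice.

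The other members did not pass the threshold. *Sall1* was at 82.1 and 92.8 CPM against 111 and 117 CPM (-0.52 ± 0.17, adjusted p = 0.278). *Crym* was at 46.0 and 104 CPM against 79.7 and 91.4 CPM (-0.30 ± 0.31, adjusted p = 0.818), with overlapping genotypes. The induction-associated members lay on the other side of 0: *Pax8* was at 210 and 191 CPM in the ko mice and at 133 and 112 CPM in the wt mice (0.57 ± 0.15, adjusted p = 0.164), and *Lhx1* at 458 and 313 CPM against 226 and 192 CPM (0.74 ± 0.18, adjusted p = 0.128). Without mouse 1, and likewise without mouse 2, the calls other than that of *Cited1* were lost. The log2 changes of the other 5 stayed near those with all mice. They were -0.93 and -1.35 for *Eya1*, -1.68 and -1.31 for *Osr1*, and -2.44 and -2.58 for *Meox1*. For *Meox2* they were -4.45 and -3.92, and for *Pax2* -0.88 and -0.98. Without mouse 3 or mouse 4 more members were called. Calls over all genes fell and rose in the same fits, so these shifts are no result about the members. The summed level of the 7 renal vesicle markers was also higher in the ko NPC-like cells (2076 and 1508 CPM) than in the wt ones (1062 and 1102 CPM), and that of the 7 NPC markers lower (387 and 394 CPM against 656 and 791 CPM). Their part in these differences was not tested.

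Since NPC-like cells joined a *Cited1*-rich and a *Wnt4*-rich cluster, both were fitted apart, a choice made after seeing the data. Cluster 8 made up 29.8% and 44.2% of NPC-like cells in the ko mice and 38.8% and 55.1% in the wt mice, and the genotypes overlapped. In cluster 8 only *Cited1* and *Meox2* passed the threshold with all mice, and both were lower in the ko mice. *Meox2* had passed the filter on low counts there through the wt cells alone. Of 7992 genes tested there, 0.751% were called and 0.438% called lower. At an unadjusted p below 0.05, 4 members were lower and 2 higher there, and 2-fold changes were recovered in 13% of cases on simulated counts of this cluster. *Cited1* was at 82.6 and 55.5 CPM against 651 and 471 CPM (log2 change -3.22 ± 0.26, adjusted p = 7.7e-08). Thinned to 6800 UMIs, 21.4% and 23.5% of the ko cells of cluster 8 held a *Cited1* UMI (exact 95% intervals 4.66 to 50.8% and 10.7 to 41.2%), against 68.8% and 72.2% of the wt cells (57.4 to 78.7% and 65.6 to 78.1%). The shares without thinning were 28.6% and 23.5% against 70% and 78.3%. In immune-like cells, which should lack the gene, at most 7.5% of the thinned cells of a mouse held one, with median depths of 13492 UMIs there and 15435 UMIs in cluster 8. *Meox2* had 1 UMI in the ko cells of cluster 8 and 180 in the wt cells, a ratio of 26.7 (exact 95% interval 4.73 to 1061, adjusted p = 0.00336), with a log2 change of -4.84 ± 0.84. Without mouse 2 this was -3.11 and no longer called (adjusted p = 0.486), and without mouse 1, when the ko cells hold no UMI, the fitted value of -9.17 depends on the prior count. Without mouse 3 and without mouse 4, log2 changes in cluster 8 were -1.52 and -1.52 for *Meox1* and -0.77 and -0.67 for *Pax2*. For *Pax8* they were 0.99 and 1.46, higher in the ko cells. *Crym* was also higher, at 0.65, without mouse 3, and *Osr1* was lower, at -1.08, without mouse 4.

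The remaining cap genes of cluster 8 were less far apart, and none passed the threshold. *Eya1* was at 150 and 159 CPM against 188 and 185 CPM (-0.38 ± 0.23, adjusted p = 0.864), and *Osr1* at 67.1 and 45.6 CPM against 99.6 and 64.4 CPM, with overlapping genotypes. *Meox1* was at 25.8 and 13.9 CPM against 45.2 and 45.9 CPM (adjusted p = 0.177), and *Pax2* at 181 and 212 CPM against 289 and 317 CPM (adjusted p = 0.141). *Sall1* was at 72.3 and 79.3 CPM against 105 and 109 CPM (adjusted p = 0.701). *Crym* lay above the wt level in both ko mice, at 191 and 272 CPM against 161 and 143 CPM (0.53 ± 0.23, adjusted p = 0.565), and so did *Pax8*, at 108 and 115 CPM against 36.8 and 52.2 CPM (1.19 ± 0.31, adjusted p = 0.0807). The summed renal vesicle markers were close in this cluster (480.2 and 464 CPM ko, 423 and 456 CPM wt), but single markers moved in opposite directions. The log2 change was -2.02 for *Tmem100* and -1.64 for *Fgf8*, against 0.30 for *Wnt4*, 0.38 for *Ccnd1* and 0.53 for *Jag1*. The summed markers of the S-shaped body were higher in the ko cells (139 and 159 CPM against 66.1 and 56.7 CPM). The NPC markers were lower in both ko mice (552 and 658 CPM against 838 and 883 CPM), and the markers of the collecting duct (186 and 157 CPM against 72.0 and 104 CPM) and of the loop of Henle (103 and 99.1 CPM against 76.2 and 73.8 CPM) were higher. Erythroid markers, hemoglobin among them, stood apart in mouse 2 (2211 CPM, against 888 to 1296 CPM in the other mice). Their part in these values was not tested.

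In cluster 6, 7 members were lower in the ko mice, where 1.58% of 10368 genes were called and 1.09% called lower: *Cited1*, *Eya1*, *Osr1*, *Meox1*, *Meox2*, *Pax2* and *Crym*. *Cited1* was at 8.44 and 8.05 CPM against 94.3 and 182 CPM (-4.19 ± 0.43, adjusted p = 0.00228), which placed the ko cells near immune-like cells (9.47 and 9.64 CPM in the ko mice). *Crym* was at 12.1 and 19.1 CPM against 43.6 and 47.8 CPM (-1.65 ± 0.30, adjusted p = 0.0285), the reverse of its order in cluster 8. *Eya1* was at 34.99 and 33.2 CPM against 86.4 and 105 CPM (-1.62 ± 0.23, adjusted p = 0.00694). *Osr1* was at 13.3 and 4.02 CPM against 41.4 and 30.6 CPM (-2.22 ± 0.45, adjusted p = 0.0462). Both *Meox* genes were almost undetected in the ko cells and passed the filter on low counts through the wt cells alone. *Meox1* had 1 UMI there and 106 in the wt cells, a ratio of 28.1 (exact 95% interval 4.94 to 1121, adjusted p = 0.0329), and *Meox2* had 3 and 131 UMIs, a ratio of 11.6 (3.88 to 56.9, adjusted p = 0.00694). *Pax2* was at 165 and 161 CPM against 259 and 335 CPM (-0.99 ± 0.17, adjusted p = 0.0174).

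The factors of induction lay higher in the ko cells of cluster 6 without passing the threshold with all mice. *Pax8* was at 234 and 229 CPM against 176 and 162 CPM (0.34 ± 0.14, adjusted p = 0.484). *Lhx1* was at 561 and 463 CPM against 320 and 330 CPM (0.53 ± 0.13, adjusted p = 0.116). Its log2 change was 0.51 without mouse 3 and 0.55 without mouse 4. Without mouse 1, and likewise without mouse 2, no member passed in cluster 6 by edgeR, where *Cited1* had log2 changes of -4.23 and -4.16. With all mice, 8 members were lower and 2 higher there at an unadjusted p below 0.05, and DESeq2 was not run on the separate clusters. The summed renal vesicle markers were 2449 and 2038 CPM in the ko and 1347 and 1643 CPM in the wt cells of cluster 6. Of these markers, *Fgf8* (log2 change -1.54) and *Tmem100* (-0.36) were lower and the others, *Wnt4* (0.92) and *Ccnd1* (0.35) among them, higher. The NPC markers were at 349 and 261 CPM against 574 and 713 CPM. The markers of podocytes (314 and 352 CPM against 218 and 126 CPM), of ErPT (300.4 and 271 CPM against 218 and 134 CPM) and of the S-shaped body (163 and 190.1 CPM against 98.0 and 104 CPM) were also higher in both ko mice. The part of these shifts in the members' differences was not tested.

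**Figure D2:**
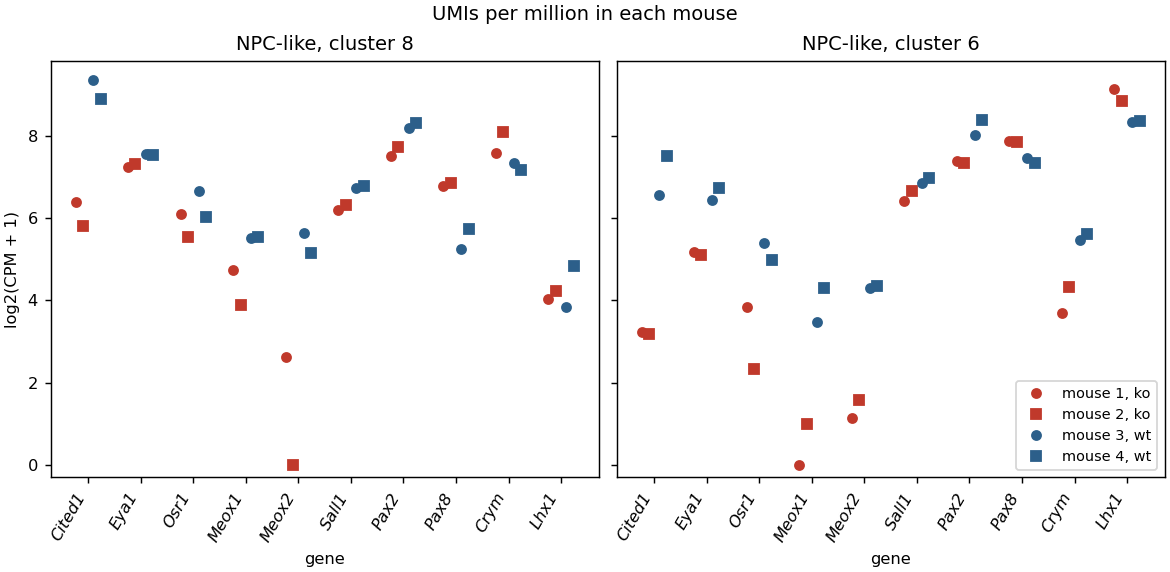
Level of each member per mouse, as log2(CPM + 1), in the NPC-like clusters 8 (left) and 6 (right); red symbols are ko mice, blue symbols wt mice. *Cited1* and *Meox2* are separated in both panels, *Crym* is higher in the ko mice on the left and lower on the right, and *Lhx1* is near the bottom on the left and at the top on the right.

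The difference between the clusters was tested as an interaction of genotype and cluster, blocked on the mouse, by which 0.304% of 9853 genes were called. *Crym* changed differently in cluster 8 and cluster 6, by 2.16 ± 0.31 on the log2 scale (cluster 8 minus cluster 6, adjusted p = 0.000873), and was called without each mouse in turn (1.98 to 2.29). *Eya1* also differed (1.23 ± 0.27, adjusted p = 0.0413), but the call was lost without mouse 1, mouse 2 or mouse 4. The differences there were 1.30, 1.08 and 1.05. For *Cited1* the difference was 0.99 ± 0.63 (adjusted p = 0.914) and for *Meox2* -1.18 ± 1.66 (adjusted p = 0.97), and these intervals leave room for unequal changes in either direction. With a mouse left out the *Cited1* difference ranged from 0.19 without mouse 4 to 1.64 without mouse 3, where it was called (adjusted p = 0.0301).

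Among the other classes, 93 tests of a member in 17 classes gave 1 call, *Lhx1* in cluster 5, where 0.964% of 10680 genes were called, and over all genes 0.301% of the tests in these classes were called. At an unadjusted p below 0.05 there were 20 of the 93, with no share of all genes counted at that threshold. *Lhx1* was at 213 and 194 CPM in the ko cells of cluster 5 and at 447 and 427 CPM in the wt cells (log2 change -1.14 ± 0.12, adjusted p = 6.82e-05). Both ko mice thus stood far below both wt mice. *Pax2* was nearly level in the same cells (223 and 226 CPM against 214 CPM in each wt mouse, 0.03 ± 0.12), as were *Sall1* (-0.23 ± 0.17) and *Pax8* (0.15 ± 0.17). The summed S-shaped body markers were 1217 and 1138 CPM in ko and 1200.3 and 1181 CPM in wt cells of cluster 5, and those of the renal vesicle were lower in both ko mice (1402 and 1239 CPM against 1596 and 1562 CPM). Markers of the distal tubule (177 and 293 CPM against 89.9 and 133 CPM) and of the ureteric bud (157 and 198 CPM against 92.3 and 139 CPM) were higher in both ko mice, and erythroid markers stood apart in mouse 2 (2497 CPM, against 820 to 1200.3 CPM in the others). Their part in the *Lhx1* difference was not tested.

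Along the nephron lineage the order of the genotypes for *Lhx1* therefore turned. In cluster 6 the ko mice lay above the wt mice, in renal vesicle-like cells they lay below them (345 and 415 CPM against 489 and 483 CPM, -0.42 ± 0.17, adjusted p = 0.831), and in cluster 5 far below. In cluster 5 *Cited1* lay higher in the ko mice without passing the threshold. It was at 5.47 to 8.04 CPM in the renal vesicle-like cells of the 4 mice and was not tested there. *Pax2* still lay lower in the ko mice in that class, at 109 and 151 CPM against 178 and 233 CPM (-0.69 ± 0.22, adjusted p = 0.568), while *Pax8* was at 268 and 255 CPM against 251 and 221 CPM (0.07 ± 0.18). Outside the lineage, *Lhx1* in the *Pdgfrb*-positive cluster 16 was at 13.2 and 13.97 CPM against 60.5 and 65.3 CPM and did not pass either (-2.25 ± 0.39, adjusted p = 0.108). The change in cluster 6 exceeded that in cluster 5 by 1.66 ± 0.13 on the log2 scale (interaction, adjusted p = 2.96e-07, called also without each mouse). In that contrast, which was chosen after seeing the data and in which 1.75% of 11441 genes were called, *Cited1* (-4.79 ± 0.37) and *Pax2* (-1.02 ± 0.16) differed as well, out of 5 members that could be tested in cluster 5. *Cited1* was called also without each mouse, and *Pax2* was not called without mouse 2 (-0.99, adjusted p = 0.0905). Against ErPT-like cells, where no member was called by edgeR and 6 of the 8 tested had a log2 change within 0.25 of 0, the change in NPC-like cells differed for 4 of these 8 members, with 1.76% of 12281 genes called. It was more negative in NPC-like cells for *Cited1* (-3.54 ± 0.29) and *Pax2* (-0.94 ± 0.16) and more positive for *Pax8* (0.72 ± 0.16) and *Lhx1* (0.91 ± 0.20). Without mouse 1 the calls of *Pax2*, *Pax8* and *Lhx1* were lost, with differences of -0.93, 0.56 and 0.54. Without mouse 2 the calls of *Pax2* and *Pax8* were lost, with differences of -0.96 and 0.89, and by DESeq2 that of *Pax8* (adjusted p = 0.0869). *Pax2* was also not called at a minimum of 2500 UMIs, by tag share or with clara (another clustering step in the assignment to mice), *Lhx1* not with clara and *Pax8* not at resolution 0.4, whereas *Cited1* was called in each of these.

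**Figure D3:**
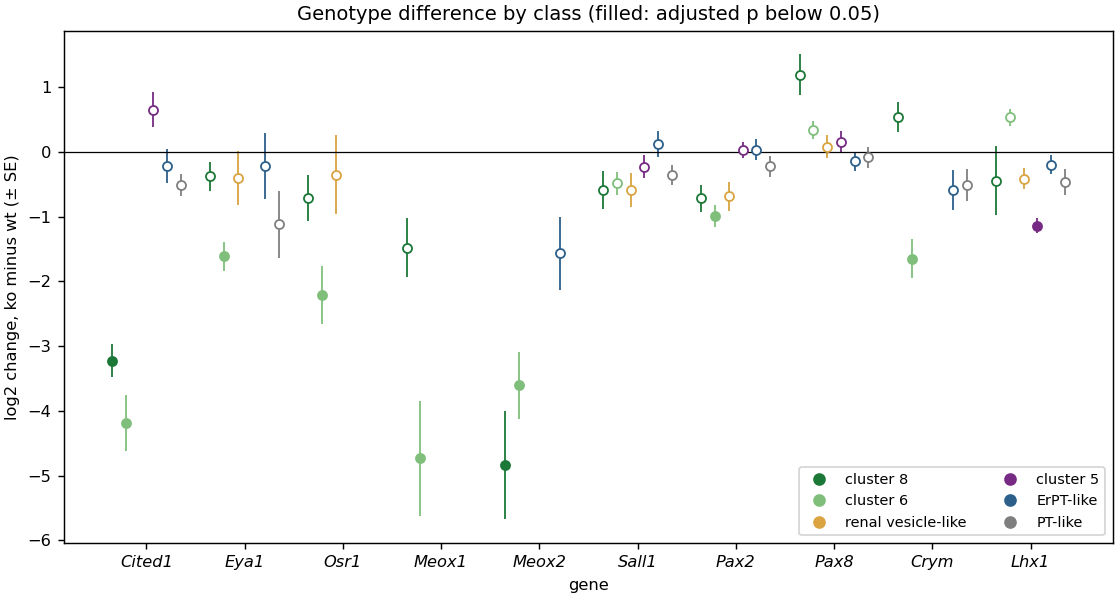
Log2 change (ko minus wt, ± SE) of each member in 6 classes along the nephron lineage, each fitted on 2 and 2 mice; filled points passed an adjusted p of 0.05. Filled points below 0 sit in clusters 8 and 6, and *Lhx1* has a point above 0 in cluster 6 and a filled one at -1.14 in cluster 5.

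**Figure D4:**
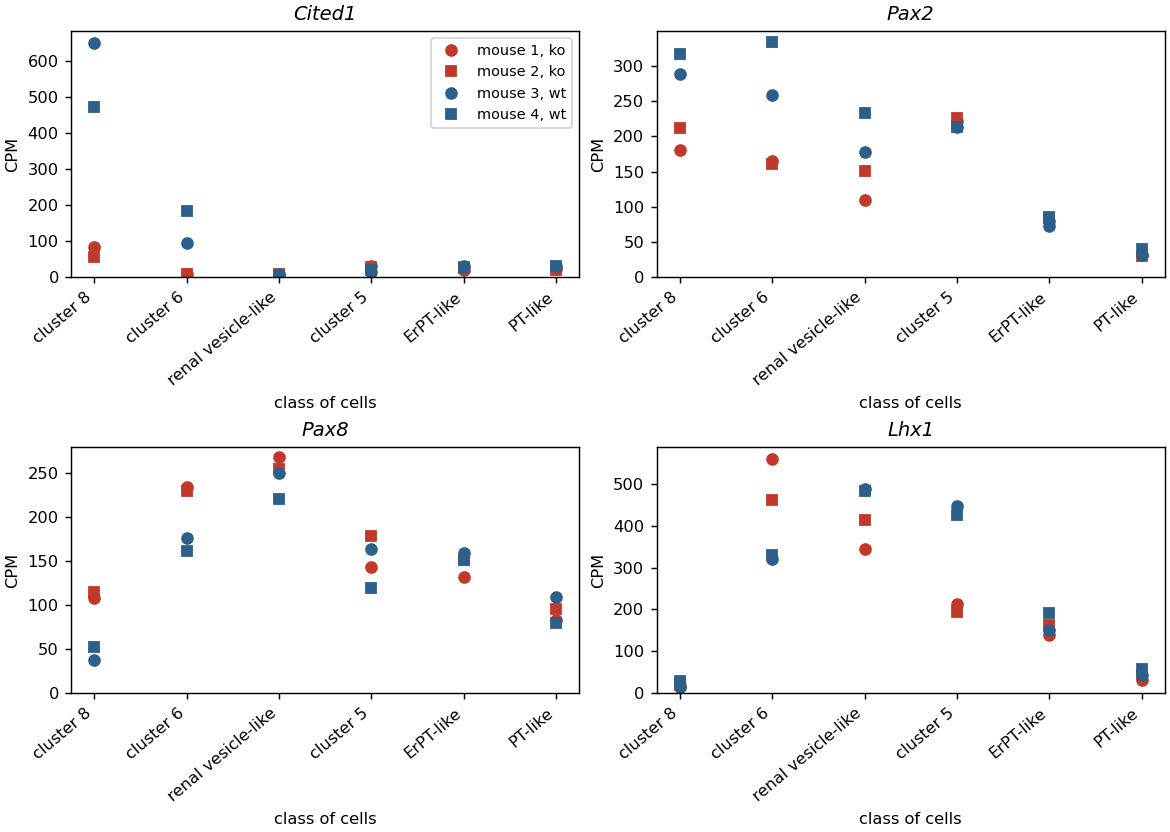
CPM per mouse of *Cited1*, *Pax2*, *Pax8* and *Lhx1* in 6 classes of the nephron lineage (red, ko; blue, wt). The *Cited1* gap closes after cluster 6, the *Pax2* gap after the renal vesicle-like class, and the ko mice change from above to below the wt mice for *Lhx1*.

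When all cells of a mouse were summed, no member was called by edgeR, with 0.501% of 16554 genes called. DESeq2 called 6 members lower and none higher, with 794 genes called in all and their share of the tested genes not counted. At an unadjusted p below 0.05, 7 members were lower and none higher by edgeR, with no share of all genes counted at that threshold. *Cited1* was at 18.5 and 20.0 CPM against 37.5 and 85.1 CPM (-1.71 ± 0.38, adjusted p = 0.115), *Osr1* at 2.91 and 2.17 CPM against 7.92 and 11.7 CPM (adjusted p = 0.0578) and *Lhx1* at 106 and 119 CPM against 166 and 198 CPM (-0.74 ± 0.13, adjusted p = 0.0799). In this sum fewer NPC-like cells and less RNA per cell cannot be told apart, since NPC-like cells were 3.19% and 4.66% of the cells of the ko mice and 8.02% and 21.9% of those of the wt mice. NPC-like cells held 4.36% and 5.28% of the *Cited1* UMIs of the ko mice against 55.7% and 81.5% of those of the wt mice, and for *Eya1* 39.7% and 46.9% against 71.5% and 89.7%.

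Other genes of the cap and of induction served as context. Of 24 further progenitor genes, 22 were tested in NPC-like cells, 2 were lower and none was higher (median log2 change -0.54). These were *Six2*, at 50.9 and 51.4 CPM against 122 and 136 CPM (-1.48 ± 0.18, adjusted p = 0.00894), and *Phf19*, a polycomb-associated factor, at 3.91 and 2.67 CPM against 14.7 and 14.03 CPM (-2.30 ± 0.42, adjusted p = 0.035). At an unadjusted p below 0.05, 11 of them were lower and none higher, and DESeq2 called 4 lower and none higher. Of 12 induction genes all were tested and none was called by edgeR (median 0.42). At an unadjusted p below 0.05, 4 of them were higher and 1 lower, and DESeq2 called 1 higher. In cluster 6, 5 of the progenitor list were lower (*Six2*, *Itga8*, *Spock2*, *Robo2* and *Fgf9*), whereas in cluster 8 none was, with 5 lower and 1 higher at an unadjusted p below 0.05. Of 8 induction genes tested in cluster 8, 1 was lower and none higher: *Tmem100*, at 20.7 and 21.8 CPM against 85.4 and 76.1 CPM (-2.02 ± 0.39, adjusted p = 0.0126). None of the 12 was called in cluster 6 by edgeR, with 4 higher and 1 lower at an unadjusted p below 0.05.

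The genes most alike to a member in their mean level over the 21 groups of cells were taken by Pearson's r of log2(CPM + 10) among 6637 genes that reached 50 CPM in some group. The levels were means over the ko and wt mice together. The groups share libraries and ambient RNA, and these correlations are descriptions. For *Eya1* these were *Six2* (r = 0.918) and *Six3* (0.917), and for *Crym* they were *Six2* (0.861) and *Snap91* (0.834). *Cited1* was nearest to *Crym* (0.825) and *Snap91* (0.76), and *Meox2* to *Cped1* (0.791) and *Crym* (0.75). Most pairs of cap genes were less alike, among them *Cited1* and *Osr1* (0.333) and *Cited1* and *Meox2* (0.426). *Osr1* was nearest to *Eya4* (0.898) and *Bmper* (0.897), and *Meox1* to the endothelial receptor gene *Flt4* (0.816) and *Kcne3* (0.81). *Lhx1* was nearest to *Lhx1os* (0.959) and *Il17rd* (0.883), and *Sall1* to *Ppat* (0.872) and *Il17rd* (0.81). *Pax2* was nearest to *Bex1* (0.879) and *Dsg2* (0.871), and *Pax8* to *Myo5b* (0.886) and *Pla2g12a* (0.884).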

How the data were processed

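The authors ran Cell Ranger (6.0.0 per the labels, 4 per the file headers) and deposited raw UMI counts of 32285 genes and 12 tags in 3921239 barcodes. The sources used here do not name the build of these counts, so positions come from GENCODE M21 by Ensembl identifier. Cells were barcodes above the order-of-magnitude threshold for 24000 expected cells (6890 UMIs) that held 200 genes or more and no more than 10% mitochondrial UMIs (19273). Mice were assigned with HTODemux (Seurat 5.3.0, quantile 0.99) with k-means in place of its default, since the default call moved when a barcode was added. SCTransform (0.4.2), 30 principal components and resolution 0.8 followed, on 3000 variable genes without the members. A cluster was named when its mean log2 marker ratio reached 0.5, 3 or more markers were 1.5-fold higher and in 10% of its cells, and its type led the markers among the 10 leading genes, limits chosen with the clusters in view. A tie in that lead was allowed, and members could be among the leading genes.

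For classes with 10 or more cells from each mouse, UMIs were summed per mouse, passed through filterByExpr, scaled by TMM and tested by the quasi-likelihood test of edgeR 4.0.16 (2 against 2, Benjamini-Hochberg over all genes tested, threshold 0.05). The SE is the absolute log2 change over the square root of F, and p-values measure only the spread between these mice. Interactions had the mouse as a block. DESeq2 1.42.0, its size factors, a filter of 1 UMI, each mouse left out, other resolutions, UMI minimum and tag assignments were alternatives. On simulated counts for NPC-like cells (11288 genes) the fit recovered 89% of 4-fold and 34% of 2-fold changes, and for cluster 8 (7992 genes) 71% and 13%.

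All members, *Trim28* and the genes of both context lists called in NPC-like cells were named, at most 6 per list, besides cluster markers, the genes most like each member and a few chosen after their values were seen. Members and lists were chosen with earlier results of these data known. Mice shared no cell barcode. The authors' 6 bulk RNA samples of P0 kidneys were not analysed here.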

Additional observations from a re-analysis of the deposited data

Results flagged for a closer look

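Each result here was noted because the genotype change of a member differed between classes of cells by an interaction test (edgeR, mouse as a block, adjusted p below 0.05). Between NPC-like and ErPT-like cells the log2 change differed for *Cited1* by -3.54, for *Pax2* by -0.94, for *Pax8* by 0.72 and for *Lhx1* by 0.91 (NPC-like minus ErPT-like). For *Meox1* the fit gave -3.63, but with at most 6 UMIs per mouse in ErPT-like cells it passed the filter only through NPC-like cells, so this value is no comparison of the classes. DESeq2 called *Cited1*, *Pax2* and *Lhx1* in this contrast, and without mouse 1 edgeR called *Cited1* alone. Between the NPC-like clusters it differed for *Crym* by 2.16 and for *Eya1* by 1.23 (cluster 8 minus cluster 6). Between cluster 6 and cluster 5, whose markers came closest to the S-shaped body, it differed for *Cited1* by -4.79, for *Pax2* by -1.02 and for *Lhx1* by 1.66 (cluster 6 minus cluster 5), and *Pax2* was not called there without mouse 2 (adjusted p = 0.0905). Both contrasts between clusters were chosen after seeing the data. For *Eya1* the fit gave -2.94, but with at most 12 UMIs per mouse in cluster 5 it passed the filter only through cluster 6, and this value is no comparison either. The *Eya1* difference between clusters 8 and 6 was called in none of the fits without mouse 1, 2 or 4.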

How the results depend on the processing

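The count of members called in NPC-like cells was 6 or 7 under both scalings, both filters, DESeq2, both resolutions, every clustering and every tag assignment, and 1 to 9 when a mouse was left out. *Cited1* was called in all 14 alternatives (log2 change -3.90 to -3.36). *Crym* in NPC-like cells turned to 0.14 without mouse 1 (adjusted p = 0.998) and was lowest, at -1.05, without mouse 2, but was called in none of the alternatives. *Lhx1* in NPC-like cells passed the threshold with a filter of 1 UMI (adjusted p = 0.0016) and by tag share (0.014). Genes called there numbered 484 with a filter of 1 UMI and 4 to 1419 with a mouse left out. In the sum of all cells, 7 members passed with a filter of 1 UMI, 6 by DESeq2 and 0 to 9 with a mouse left out, while genes called were 1119, 794 and 24 to 4572, with 32 at a minimum of 2500 UMIs, 34 by tag share and 30 with clara, the default of HTODemux. In the other classes 7 calls were made with a filter of 1 UMI, 2 with clara (*Lhx1* and *Cited1*, in the same cluster) and 1 to 15 with a mouse left out, *Lhx1* being called in a class under each setting. Members whose change differed between NPC-like and ErPT-like cells were 3 by DESeq2, at resolution 0.4 and at 2500 UMIs, 2 with clara and 1 to 6 with a mouse left out. With a mouse left out, the number of members called also varied in clusters 6 and 8 and in both contrasts between clusters. The *Cited1* log2 change then ranged from -4.58 to -3.62 in cluster 6 and from -3.50 to -2.90 in cluster 8. Calls over all genes were not counted in these fits, nor under the alternatives for the other classes and the ErPT-like contrast. None of these counts is therefore a result about the members. The counts of differing members include *Meox1* (against ErPT-like cells) and *Eya1* and *Crym* (clusters 6 and 5) where called, which were too low for a test in the later class. The cause of these shifts was not tested. *Cited1* as called with clara in the other classes was higher in the ko mice (log2 change 1.48), and *Lhx1* lower (-1.10). Under the filter of 1 UMI, *Cited1* was called higher in loop of Henle-like cells (1.03) and lower in endothelial-like cells (-1.60). With a mouse left out the lone mouse of a genotype is assumed to vary like the pair. In the other clusterings and assignments the ko to wt ratio of *Crym* stayed between 1.47 and 1.72 in the cluster that matched cluster 8 and between 0.323 and 0.469 in that matching cluster 6. No paired analysis was possible because the mice of the pool carry numbers of their own and the numbered bulk samples were not analysed here. Depth limits cluster 8, with 193666 UMIs from mouse 1.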
